A study of Mus musculus with 4 samples.

Results

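The regions described here are modest gains of chromatin accessibility inside gene bodies of long-term hematopoietic stem cells (LT-HSCs) that lack Sin3B. They are 1572 of the 5332 peaks in the deposited table of differentially accessible peaks, or 29.5%. A peak was a member when it lay inside a gene, more than 100 bases from that gene's start, and when the log2 of its summed level in the Sin3B-/- libraries over that in the Sin3B+/+ libraries was above 0 and below 1, a gain of less than 2-fold. The members were therefore chosen by the measured values of the same comparison, and their gain is a description of the choice and is given with no test. ATAC-Seq, in which a transposase cuts and tags open DNA, was run on LT-HSCs of both genotypes, with 2 libraries per genotype and the cells of 2 mice pooled in each. The cells came from the bone marrow of C57BL/6 mice at homeostasis, enriched for cKit and sorted as L-S+K+Flk2-CD48-CD150+, and the amount of transposase was scaled to the number of cells obtained. Sin3B-/- mice (labelled 3BKO) carried floxed Sin3B alleles and the Vav1-iCre transgene, whose promoter is active across the blood lineages, so that Sin3B was deleted in the hematopoietic system as a whole and not in LT-HSCs alone. Controls (labelled WT) kept Sin3B, and the age of the mice is not given in the labels.

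Sin3B is a scaffold protein of corepressor complexes that bring histone deacetylases to DNA, and it acts with the Rb family and E2F proteins at cell cycle genes. Open sites within genes are often enhancers, which sit in introns and are bound by cell type specific transcription factors. In blood stem cells these include PU.1, an ETS family factor of myeloid and lymphoid cells, and the RUNX, GATA and TAL1 proteins. Open sites within genes can also be alternative promoters, since many genes start transcripts at several places. Promoters more often hold many CpG dinucleotides and the sites of KLF, Sp and ETS proteins.

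Sequences of 3 member peaks show what these sites look like. Each is the 300 bases around the centre of a member peak, read from the plus strand of GRCm38. The window lay in an intron and overlapped no annotated exon, terms that were set for the window and not for the whole peak. Each was from the member of highest level in its gene list to meet those terms and to hold a match to a motif longer than 6 letters. Members of higher level whose windows matched only 6-letter motifs, such as peaks in Mef2c and in intron 3 of Dnmt3a, were passed over. Capitals mark exact matches to GAGGAAGT for PU.1, to TGTGGTTT for RUNX, or to the letters AGATAA of the GATA motif, on either strand.
Ikzf2: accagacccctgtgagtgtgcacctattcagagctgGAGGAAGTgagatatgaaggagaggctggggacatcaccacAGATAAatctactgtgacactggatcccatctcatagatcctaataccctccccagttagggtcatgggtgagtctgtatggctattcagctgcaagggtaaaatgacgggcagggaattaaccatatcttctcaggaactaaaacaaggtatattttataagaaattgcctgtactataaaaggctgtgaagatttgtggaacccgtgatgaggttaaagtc
Zfpm1: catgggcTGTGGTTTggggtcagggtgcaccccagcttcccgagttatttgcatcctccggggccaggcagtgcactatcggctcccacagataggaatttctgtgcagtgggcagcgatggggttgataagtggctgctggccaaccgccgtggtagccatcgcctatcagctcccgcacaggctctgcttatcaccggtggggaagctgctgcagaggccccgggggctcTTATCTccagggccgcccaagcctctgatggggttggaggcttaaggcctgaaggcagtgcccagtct
Dnmt3a: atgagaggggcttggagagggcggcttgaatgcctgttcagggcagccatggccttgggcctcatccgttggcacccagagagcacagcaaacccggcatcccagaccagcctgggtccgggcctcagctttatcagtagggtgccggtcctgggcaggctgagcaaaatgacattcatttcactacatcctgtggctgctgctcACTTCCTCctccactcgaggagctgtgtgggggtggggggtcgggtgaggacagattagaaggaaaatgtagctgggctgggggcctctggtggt

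The Ikzf2 window, chr1:69606991-69607290, lies in intron 3 of the gene of the lymphoid zinc finger factor Helios. It holds a PU.1 match at position 37 and a GATA match at position 78, counted from 1 at its 5′ end. The Zfpm1 window, chr8:122309336-122309635, lies in intron 3 of the gene of FOG1, the GATA1 cofactor of red cells and platelets, with a RUNX match at position 8 and a GATA match at position 233. The Dnmt3a window, chr12:3834412-3834711, lies in intron 1 of the gene of a DNA methyltransferase that limits stem cell self-renewal, with a PU.1 match on the minus strand at position 206. A match is a run of letters and does not show that a factor was bound.

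Every library value is a level, the reads in the whole peak scaled by the authors with 1 factor per library. The median level of the members was 212 and 179 in the Sin3B+/+ libraries and 306 and 337 in the Sin3B-/- libraries. The members' median log2 ratio was 0.745, or 1.68-fold, with quartiles of 0.647 and 0.857. Both Sin3B-/- libraries stood above both Sin3B+/+ libraries in all 1572 members, against 5103 peaks (95.7%) of the whole table. The table also held 5103 gains, so every gain was separated in this way and only losses were not. This separation was thus that of the background and follows from how the table and the members were chosen. Libraries of the same genotype also differed from each other in one direction. The first Sin3B+/+ library was above the second in 90.3% of the members, by a median log2 ratio of 0.253, and the first Sin3B-/- library was below the second by a median of 0.137 (median log2 ratio -0.137). Ratios of single libraries across genotypes had medians from 0.549 to 0.932. In 1250 members (79.5%) the gap between the lowest Sin3B-/- and the highest Sin3B+/+ library was larger than the larger difference between replicates. In the table these were 4111 peaks (77.1%). Losses could not pass this comparison, so the 77.1% understates the share among the 5103 gains, and the members did not stand apart from them. With 2 libraries per genotype an exact two-sided permutation test cannot give a p-value below 0.333.

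The gains are given on the authors' scale. Levels were whole multiples of a step in each library (100% of peaks within 0.01), of 0.228 and 0.343 in Sin3B+/+ and of 0.625 and 1 in Sin3B-/-, and a step may stand for 1 read. Counted in steps, the members summed to 2266038 and 1262891 in the Sin3B+/+ libraries and to 1171907 and 808901 in the Sin3B-/- libraries. Both Sin3B+/+ libraries thus had larger sums in steps than both Sin3B-/- libraries, while their levels were lower. Within Sin3B+/+ the first library was the larger on both scales. Total depth is unknown here, and these sums cover the members alone. The lowest level of a member was between 64 and 147 steps in the 4 libraries, far above a floor of 3 steps. When each library was centred on its own median over the table, the log2 ratio of all peaks shifted down by 0.751, and 755 members (48.0%) were above 0, against 50.9% of the table. Since 95.7% of the table are gains, centring on it puts the middle of the table near 0 by construction, and it shows only where the members stood among the called peaks. The part of the scaling in the gains was not tested. Sin3b had 0 peaks in the table, which leaves the deletion unchecked here. Of 13 genes of the sorting markers only Slamf1 (CD150) had a peak in the table, and sites without a call were not analysed, so the identity of the cells could not be read from these data.

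The bounds of the rule cut through the table unevenly. Just below a log2 ratio of 1 lay a peak in Cbfa2t3 at 0.9995, followed by Ust at 0.9991 and A930019D19Rik at 0.9990, and the nearest at or above it were in Ptprj at 1, Ppfia1 at 1.0002 and Gstm6 at 1.0012. At the lower end there was a wide gap, since the smallest gain among members was 0.442 in Actl6a, then 0.465 in 1700034P13Rik and 0.469 in Fbxl19, while the nearest peaks inside genes below 0 were Cfap43 at -0.60, Arhgef28 at -0.61 and Coro2a at -0.61. The distance bound removed no peak. The members nearest to a gene start were Zswim1 at 254 bases, Sap30bp at 260 bases and 1110036E04Rik at 285 bases, because a peak that lies wholly inside a gene has its centre at some distance from the start.

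Members were spread over the length of their genes. Their median distance from the gene start was 15226 bases, with quartiles of 3417 and 51393 bases, in genes with a median length of 51065 bases. Of the members, 152 lay up to 1000 bases from the gene start, 312 from there to 5000 bases, 406 to 20000 bases, 501 to 100000 bases and 201 beyond. The level of these 5 bins fell from a median of 388 in the nearest to 219.5 in the farthest, while the median log2 ratio went from 0.689 to 0.770. Higher levels also went with smaller ratios across classes of called peaks. Median level and log2 ratio were 681.6 and 0.642 in modest gains over gene starts and 259.9 and 0.745 in all members. They were 74.7 and 1.22 in gains of log2 ratio 1 or more inside genes. These classes were set partly by ratio, and the part of the authors' call in this relation was not tested. By the basic GENCODE M21 transcripts of the annotated gene, 1244 peak centres (79.1%) were in introns, 128 (8.14%) in untranslated regions, 68 (4.33%) in coding sequence, 46 (2.93%) in non-coding exons and 86 (5.47%) outside those transcripts. In the longest basic transcript of each gene, 557 of 1273 intronic members (43.8%) were in intron 1. In genes with more than 1 intron these were 501 of 1217 (41.2%). Over the 1333 genes with at least 1 intron, intron 1 made up a median of 27.8% of the intron length per gene. Intron 1 held 35.4% of all members and 35.5% of the 812 gains of log2 ratio 1 or more inside genes. It held 43.2% of the 380 members within 1000 bases of any annotated transcript start and 33.0% of the 1192 others. Intron 3 or later held 6.84% and 40.4% of these. Genes of the members were protein-coding for 1388 peaks, lincRNA for 84 and antisense for 56. A centre lay in 2 or more annotated genes for 147 members (9.35%), so their gene is uncertain.

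A gene body in the table means one start per gene, and many members were close to some other start. Of the 1572 members, 380 (24.2%) had their centre within 1000 bases of an annotated transcript start, and 239 peaks (15.2%) covered one. The nearest start belonged to the annotated gene in 306 of the 380 and to another gene in 74. Among the larger gains inside genes, of log2 ratio 1 or more, 15.3% of 812 were within 1000 bases of a start, and among the 1465 modest gains that overlapped a gene start 99.2% were. Start-near members had a median level of 532 per kilobase of peak, a GC content of 58.0% and 15 CpG dinucleotides in the 300-base centre window. The 1192 members farther from any start had a median of 385 per kilobase, 52.0% GC and 5 CpG dinucleotides. Modest gains over gene starts had 769 per kilobase, 61.3% GC and 21 CpG dinucleotides, and modest gains upstream or downstream of genes had 401 per kilobase, 51.3% GC and 5 CpG dinucleotides. On these measures the start-near members lay between gene starts and the remaining members, which had values close to those of sites outside genes. The median GC content of all members was 53.3%, and that of 300-base windows taken every 3000 bases along the genome was 41.7%.

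**Figure D1:**
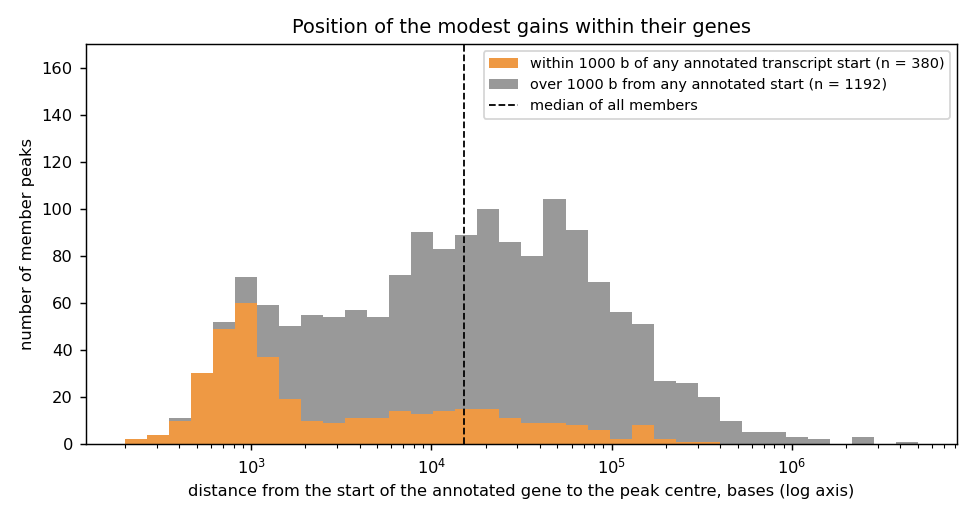
Histogram of the distance from the start of the annotated gene to the peak centre, in bases on a log axis, for the 1572 members, stacked by whether any annotated transcript start lay within 1000 bases (380 members, orange) or not (1192 members, grey). The dashed line marks the median of 15226 bases, and start-near members sit mainly at the left but occur at all distances up to the right-hand tail.

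The shares of members with motif matches differed in the same way between members close to a start and the rest. Motifs were searched as exact letters on both strands in the 300-base centre window, and the reference is 853083 windows of the same length from chromosomes 1 to 19 and X. The PU.1 motif was in 156 members (9.92%), in 1.81% of genome windows and in 4.44% of modest gains over gene starts. It was in 11.3% of the larger gains inside genes, 8.5% of modest gains outside genes and 8.51% of the whole table, shares close to that of the members. RUNX was in 108 members (6.87%), in 2.63% of genome windows and in 1.09% of modest gains over gene starts, and it was in 5.79% of the larger gains inside genes, 6.09% of modest gains outside genes, 10.4% of the 115 losses inside genes and 5.33% of the whole table. Away from any start, 11.5% of members held PU.1 and 8.14% held RUNX, while within 1000 bases of a start these were 5% and 2.89%. GATA was in 24.7% of members away from a start and 10.5% of those near one, but its 6 letters were also in 19.3% of genome windows. The TAL1-type E-box, CAGCTG, was in 22.4% of members, 10.7% of genome windows and 20.1% of the whole table. For AP-1, TGANTCA, these shares were 11.9%, 8.84% and 10.4%, and for GATA 21.3%, 19.3% and 17.8%. Among the larger gains inside genes the E-box, AP-1 and GATA were in 22.9%, 11.8% and 22.7%. Among modest gains outside genes they were in 20.2%, 12.9% and 23.1%, shares close to those of the members.

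Promoter-type motifs ran the other way. GGGCGG, the core of KLF and Sp sites, was in 47.4% of start-near members, 14.5% of the others and 61.6% of modest gains over gene starts, against 2.84% of genome windows. The ETS motif CCGGAAGT, bound by GABPA and its relatives, was in 2.63% of start-near members, 0.923% of the others and 8.05% of modest gains over gene starts. CTCF, searched as CNAGGNGGC, was in 8.46% of members, 9.15% of the whole table and 2.19% of genome windows. Of the motifs of cell cycle regulators, TTTCCCGC and TTTGGCGC, 2 forms of the E2F site, were in 9 (0.573%) and 2 (0.127%) members. They were in 0.844% and 0.413% of the whole table and in 0.159% and 0.0701% of genome windows. TTTGAA, the core of the CHR element bound by the DREAM complex, was in 14.4% of members, 13.6% of the whole table and 27.8% of genome windows. The remaining motifs were CRE (TGACGTCA) in 1.53%, the MYC-type E-box (CACGTG) in 6.30%, Meis (TGACAG) in 21.6%, Hox-Pbx (TGATTTAT) in 1.21%, NRF1 (GCGCATGC) in 1.21%, IRF (GAAANNGAA) in 10.6%, MEF2 (CTATTTNTA) in 0.827%, CEBP (TTGCGCAA) in 0.0636% and MYB (AACNGTT) in 4.20% of members. Matches of different motifs can overlap. Shares of motifs rich in G and C, or in A and T such as CHR and MEF2, move with the GC content given above.

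**Figure D2:**
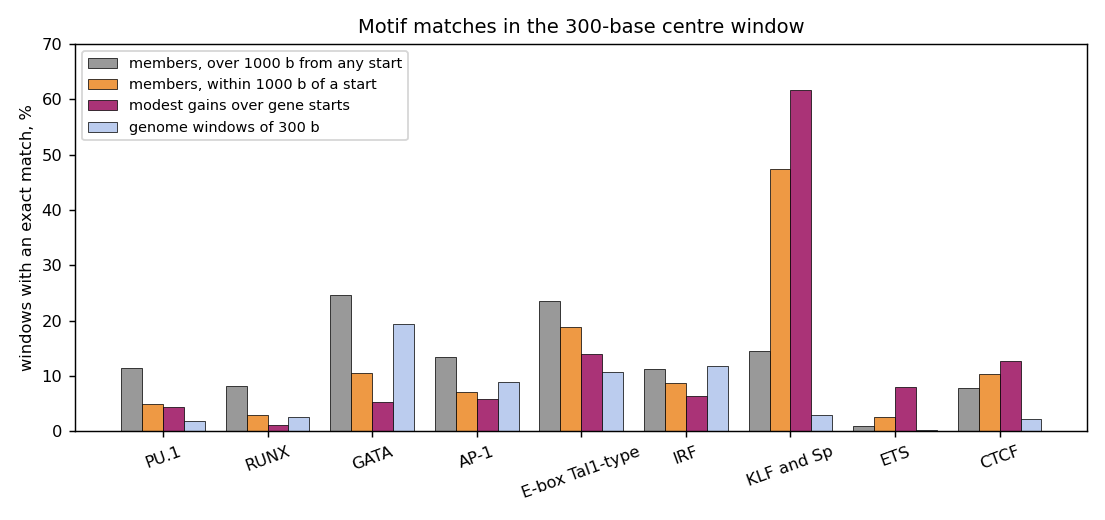
Percentage of 300-base centre windows with an exact match to each of 9 motifs, in 1192 members over 1000 bases from any start (grey), 380 members within 1000 bases of a start (orange), 1465 modest gains over gene starts (purple) and genome windows (pale blue). PU.1 and RUNX are highest in the grey bars, at 11.5% and 8.14%, and KLF and Sp in the purple ones, at 61.6%.

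Matches of PU.1, of RUNX and of the rarer CRE motif were gathered at the peak centres. Within 100 bases of the centre the members held 0.372 PU.1 matches per kilobase, against 0.0541 at 400 to 500 bases, a ratio of 6.88. RUNX had 0.251 and 0.0509 per kilobase, a ratio of 4.94. CRE, with few matches, had 0.0604 and 0.00954, a ratio of 6.33. Promoter-type motifs also rose, with ratios of 2.5 for ETS, 2.22 for NRF1 and 1.91 for KLF and Sp. CTCF was at 1.75 and AP-1 at 1.69. GATA had 0.916 and 0.487, a ratio of 1.88, and the TAL1-type E-box 0.922 and 0.560, a ratio of 1.65. Meis, at 1.09, and IRF, at 1.22, were nearly flat. CHR was lower at the centre, with a ratio of 0.601, and so was MEF2, with few matches, at 0.438. At least 1 of PU.1, RUNX and GATA was found in 528 members. PU.1 and GATA occurred together in 33 members, as in the Ikzf2 window, GATA and RUNX in 27, as in the Zfpm1 window, and GATA and the TAL1-type E-box in 78. Singly, PU.1 was in 156 members, RUNX in 108, GATA in 335 and the TAL1-type E-box in 352. The 528 members and the pairs were not set against the whole table. Whether the motifs occur together more often than their single counts would give was not tested.

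**Figure D3:**
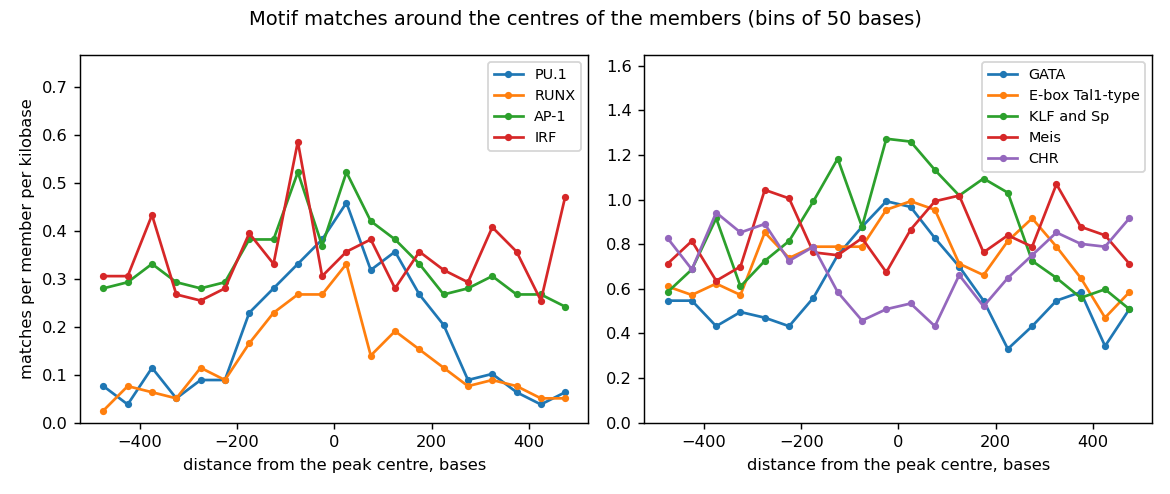
Motif matches per member and kilobase, in bins of 50 bases, against the distance in bases from the centre of the peak, for the 1572 members. The left panel shows PU.1, RUNX, AP-1 and IRF and the right panel GATA, the TAL1-type E-box, KLF and Sp, Meis and CHR. Of the motifs shown, PU.1 and RUNX have the highest centre-to-edge ratios, at 6.88 and 4.94, and CHR dips at the centre, with a ratio of 0.601.

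The members fell in 1357 genes. Of these, 1189 held 1 member, 134 held 2 and 34 held 3 or more. Genes with 1 member had a median length of 40100 bases, and genes with 2 or more of 86607 bases. Of the 1357 genes, 117 (8.62%) also had a peak over their start in the table, 164 (12.1%) also had a gain of log2 ratio 1 or more, and 17 also had a loss. These shares were not set against those of all genes in the table. Only called peaks are listed, so a start without a peak here may still be open or changed. Modest gains upstream or downstream of these genes were not counted here.

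Gse1, which encodes a partner of histone deacetylase and demethylase complexes, held the most, with 8 members in 352935 bases on chromosome 8 and 1 loss. Each of the 8 had its centre in 2 annotated genes. By its coordinates the long predicted gene Gm20388, described below, spans all 8, so their gene is uncertain by annotation alone. Several, including both sites described next, lay outside the basic transcripts of Gse1. Its strongest, chr8:120369739-120370459, had levels of 933 and 817 in the Sin3B+/+ libraries and 1246 and 1202 in the Sin3B-/- libraries (log2 ratio 0.485), and its window held GATA and TAL1-type E-box matches. The peak just downstream of it, chr8:120371690-120372148, had 445 and 406 against 753 and 822 (log2 ratio 0.888). The stronger of these neighbouring sites had the smallest log2 ratio of the 8 and the other one of the largest. Smaller ratios at higher levels were also seen across the classes of called peaks above.

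Pde4d, a cAMP phosphodiesterase gene of 1503514 bases on chromosome 13, held 5 members and no other called peak. These ran from 45.8 ± 4.23 (SD, n = 2) in Sin3B+/+ and 88.6 ± 3.38 in Sin3B-/- at the weakest to 296 ± 86.6 and 516 ± 11.3 at the strongest, which lay 1372568 bases from the gene start in intron 7, with RUNX and CRE matches. Elmsan1, which encodes a protein of a histone deacetylase complex, held 4 members in 69706 bases, with log2 ratios from 0.562 to 0.940. Its strongest had levels of 1021 and 836 in Sin3B+/+ and 1405 and 1583 in Sin3B-/-. Nfix, the gene of a factor that supports stem cell engraftment, also held 4, with log2 ratios from 0.583 to 0.829.

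Gm20388 is a predicted gene of 4434882 bases on chromosome 8 that spans many other genes, and its 5 members are better read by position. These included 4 of the 5 members farthest from a gene start. Its peaks chr8:122700560-122701135 and chr8:122719662-122721199 lay nearest to starts of Cbfa2t3 and C230057M02Rik, respectively. The latter had levels of 1274 and 1107 in Sin3B+/+ and 1916 and 1992 in Sin3B-/-, with GATA, TAL1-type E-box and GGGCGG matches.

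**Figure D4:**
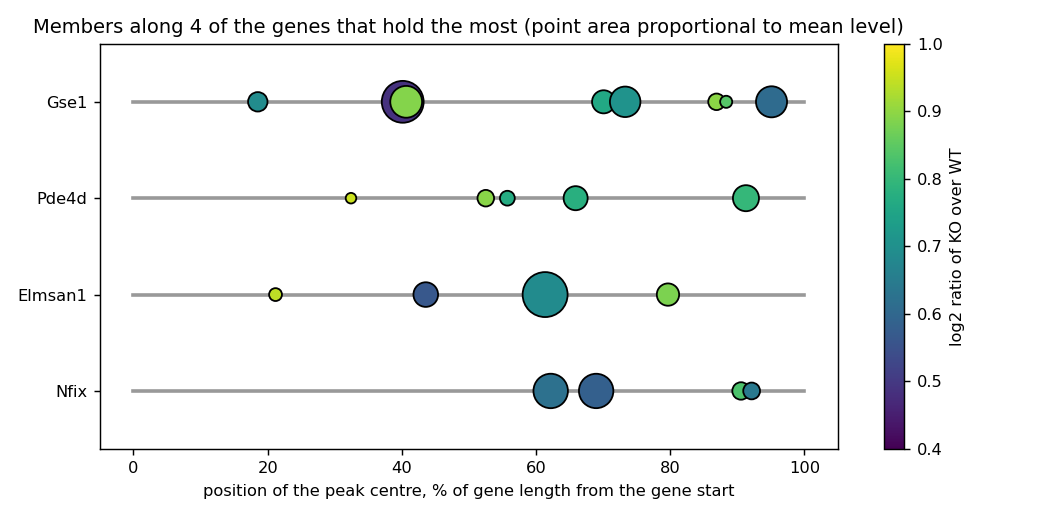
Position of the member peaks in Gse1, Pde4d, Elmsan1 and Nfix, as a percentage of gene length from the gene start. Point area is proportional to the mean level over 4 libraries and colour gives the log2 ratio of Sin3B-/- over Sin3B+/+. The 8 members of Gse1 include the strongest of that gene at a log2 ratio of 0.485 next to one at 0.888.

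Of the 10 members of highest level over the whole peak, 7 covered an annotated start. The highest was in Ppp2r3d, a phosphatase subunit gene, at 5213 and 3723 in Sin3B+/+ and 6464 and 6495 in Sin3B-/-, in a peak of 3291 bases that covered a start of the same gene. The next was in Ppm1b, a phosphatase gene, at 2684 and 2321 in Sin3B+/+ and 4377 and 4767 in Sin3B-/-. It and the peaks in Gm16278, Kat6b, Gm20512, C330011M18Rik and 1700055D18Rik also covered an annotated start, and the nearest start in Ppm1b, Gm16278, Gm20512, C330011M18Rik and 1700055D18Rik belonged to another gene. Those other genes were 1110020A21Rik, Rab40c, Tomm40, Rfx1 and Zbtb5. Kat6b, a histone acetyltransferase gene needed for stem cell function, had 2446 and 2258 in Sin3B+/+ and 3501 and 3796 in Sin3B-/- in a peak centred 19312 bases into the gene.

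Crlf2, Clec11a and Adgrg1 were the 3 without a start under the peak. Crlf2 encodes a cytokine receptor chain and had 2853 and 2255 against 4349 and 4352 (log2 ratio 0.769) in intron 2. Clec11a encodes a growth factor of the bone marrow niche and had 2540 and 1838 against 3707 and 4176 (0.849) in intron 3. Adgrg1, the gene of the stem cell marker GPR56, had 1929 and 1882 against 3026 and 3436 (0.762) in intron 13, near its end. The 2 Sin3B+/+ libraries were closest to each other in Adgrg1 and farthest apart in Clec11a.

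Genes of 11 pathways were then read from fixed lists, in which the table's calls are the authors' and the share of peaks that were members is set beside the 29.5% of the whole table. Counts per list were small, and none is claimed to stand apart. Of 24 genes of stem cell transcription factors, 10 had a peak in the table, with 17 peaks, 0 losses and 10 members (58.8%) in 8 genes. Their median log2 ratio was 0.662 and 1 of the 10 was within 1000 bases of a start, so most were internal sites. Runx1, required for blood stem cells to form, held 2 in intron 2. The stronger, chr16:92821885-92822865, had 1080.4 and 983 in Sin3B+/+ and 1620.1 and 1745 in Sin3B-/-, and the weaker had 633 and 499 against 742 and 949. Egr1, an immediate early factor of quiescent stem cells, had 1113 and 843 against 1466 and 1445 over its own untranslated exon, where the peak covered a start. Gata2, which stem cells need to persist, had 722 and 609 against 888 and 1017 in intron 4 (log2 ratio 0.518). Among these 4 sites the lowest Sin3B-/- library was closest to the highest Sin3B+/+ library in the second Runx1 site and in Gata2.

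The other stem cell factors were of lower level. Meis1, a partner of HOX proteins, had 503 ± 42.7 in Sin3B+/+ and 771 ± 116 in Sin3B-/- in intron 7, with PU.1 and GATA matches. Prdm16, a factor that maintains stem cells, had 488 ± 65.4 and 775 ± 135 in intron 1, and Erg, an ETS factor, held 2 in intron 3 at 418 ± 41.4 and 713 ± 42.5 and at 347 ± 36 and 559 ± 66.2. Mllt3, which supports self-renewal, had 217 ± 12.5 and 342 ± 90.0 with a PU.1 match. The Mllt3 libraries of Sin3B-/- were the most unlike among these, at 279 and 406.

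Of 23 genes of stem cell surface receptors and ligands, 7 had 10 peaks, with 0 losses, and 5 were members (50%), with a median log2 ratio of 0.745. None of the 5 was near a start. Itga2b, the integrin CD41 of platelets and early progenitors, had 281 and 183 in Sin3B+/+ and 364 and 400 in Sin3B-/-, in intron 27. Esam, an adhesion molecule of stem cells, had 134 and 114 against 183 and 216 in intron 1. Slamf1, the sorting marker CD150, had 124 and 106 against 169 and 240 (log2 ratio 0.831) in intron 1. The Slamf1 libraries of Sin3B-/- lay farther apart than those of Sin3B+/+. The remaining 2 were Angpt1, the ligand of the TIE2 receptor, at 85.9 ± 6.05 and 144 ± 17.1, and Fgd5, at 72.3 ± 15.5 and 126 ± 9.96.

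Members in lineage genes were few. The lymphoid list of 29 genes had 4 peaks, with 0 losses and 3 members. Gata3, a T cell factor, had 312 and 240.3 against 427 and 438, and Notch1, the receptor that starts T cell fate, 185 and 155 against 258 and 307. Ikzf2 was the weakest, at 58.6 and 50.7 in Sin3B+/+ and 95.0 and 113 in Sin3B-/- (log2 ratio 0.927), in the window printed above. These 3 kept the order of the libraries within Sin3B+/+ that most members had.

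The myeloid list of 23 genes had 5 peaks, with 0 losses and 3 members. Spi1, which encodes PU.1, held 2. One, chr2:91096420-91097420, had 351 and 316 against 434 and 569 over an untranslated exon 824 bases from a transcript start, and the other, chr2:91082845-91083307, had 303 and 253 against 466 and 551 before the basic transcripts begin. Csf1r, the receptor of macrophage colony-stimulating factor, had 58.2 and 43.5 against 95.6 and 89.0 in intron 1. Sites of both a myeloid factor and a receptor were thus among the members, at low to middle levels.

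The erythroid and megakaryocyte list of 20 genes had 12 peaks, of which 5 were members, 5 were larger gains and 0 were losses. Mef2c had 626 and 508 against 915 and 1091 in intron 2, Zfpm1 had 596 and 589 against 884 and 979 in the window printed above, and Klf1, the red cell master factor, had 423 and 321 against 559 and 561 over coding sequence. The replicates of Zfpm1 in Sin3B+/+ and of Klf1 in Sin3B-/- were nearly equal. Ank1, of the red cell skeleton, had 270.3 ± 45.3 and 421 ± 9.89, and Nfia, a factor that favours red cell fate, 149 ± 9.93 and 242 ± 12.8.

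Cell cycle genes bear on the known role of Sin3B in G1. Of 36 genes of G1 phase, the Rb family and the DREAM complex, 11 had 15 peaks, with 0 losses and 7 members (46.7%) in 4 genes. E2f2 had 1450.0 and 1086 in Sin3B+/+ and 1694 and 1876 in Sin3B-/- (log2 ratio 0.494). Ccnd3, the cyclin D3 gene, held 3, at 994 ± 50.5 and 1384 ± 154 over a start in intron 4, at 438 ± 52.8 and 627 ± 12.8 in intron 1, and at 122 ± 17.6 and 201 ± 1.90 in intron 6. Ccnd2, the cyclin D2 gene, had 218 and 187 against 309 and 346 over a start. Rbl2, which encodes the pocket protein p130 of DREAM, held 2, at 211 ± 22.3 and 364 ± 42.7 in intron 3 and at 73.6 ± 12.4 and 134 ± 6.13 in intron 4. E2f2 and the strongest Ccnd3 site had the highest levels of this list and its smallest ratios. Such a direction was also seen across the classes of called peaks above and is not particular to these genes.

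Of 36 genes of Sin3, HDAC and partner corepressors, 12 had 16 peaks, with 1 loss and 4 members (25%). Ing1, a reader of methylated histone H3 in Sin3 complexes, had 1800 and 1503 in Sin3B+/+ and 2508 and 2892 in Sin3B-/- over a start. Hdac4, a class IIa deacetylase, had 1398 and 1146 against 1673 and 1871, also over a start (log2 ratio 0.479). Foxk1, a factor that recruits Sin3, had 205 ± 33.4 and 361 ± 10.2 in intron 2. Both sites of highest level in this list covered another annotated start of the same gene.

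Regulators of chromatin and DNA methylation had 25 peaks in 14 of 38 genes, of which 13 were members (52.0%), 8 were larger gains and 0 were losses. Dnmt3a held 3 internal sites. These had 972 and 904 against 1211 and 1580 in intron 3, 1018 and 813 against 1275 and 1562 in intron 4, and 559 and 458 against 794 and 876 in intron 1, in the window printed above. Bcor, of a Polycomb complex, held 2 in intron 1, at 802 ± 124 and 1370 ± 165 and at 235 ± 27.6 and 375 ± 2.66. The others were in Kdm6b (2), Chd7 (2), Smarca2, Tet3, Arid1b and Crebbp, with mean levels in Sin3B-/- from 133 to 972. Tet3, an enzyme that oxidizes methylated cytosine, was near the upper bound at a log2 ratio of 0.985, with 255 and 236 against 460 and 512.

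Signalling genes gave further members. The interferon and JAK-STAT list of 32 genes had 19 peaks, with 0 losses and 5 members (26.3%). Stat5a, which transmits cytokine signals, had 673 and 633 against 924 and 987 over a start, Irf9 had 381 and 316 against 474 and 564 over a start, Stat3 held 2 internal sites, the stronger at 230 and 197 against 300 and 356, and Irf7 had 202 ± 30.5 and 321 ± 17.7. The PI3K, mTOR and FoxO list of 30 genes had 17 peaks, with 1 loss and 7 members (41.2%), 4 of them near a start. Pik3cd, a leukocyte kinase subunit, had 555 and 461 against 765 and 895 over a start, Pik3r1, the regulatory subunit, had 266 and 192 against 407 and 398 in intron 1, and Irs1, an adaptor of the insulin receptor, had 180 and 174 against 281 and 300. Tsc2, an inhibitor of mTOR, was the member of highest ratio in this list, at 74.3 ± 15.3 and 145 ± 0.0354 (log2 ratio 0.965).

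Adhesion and migration genes had 13 peaks in 11 of 30 genes with 1 loss and 5 members (38.5%). Itgb7, an integrin chain of gut homing, had 671 and 518 against 964 and 1000 in intron 2, Ptk2b, a focal adhesion kinase relative, 376 and 311 against 494 and 534 in intron 1, and Cd47, the signal that prevents engulfment, 329 and 225 against 419 and 472 in intron 4.

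**Figure D5:**
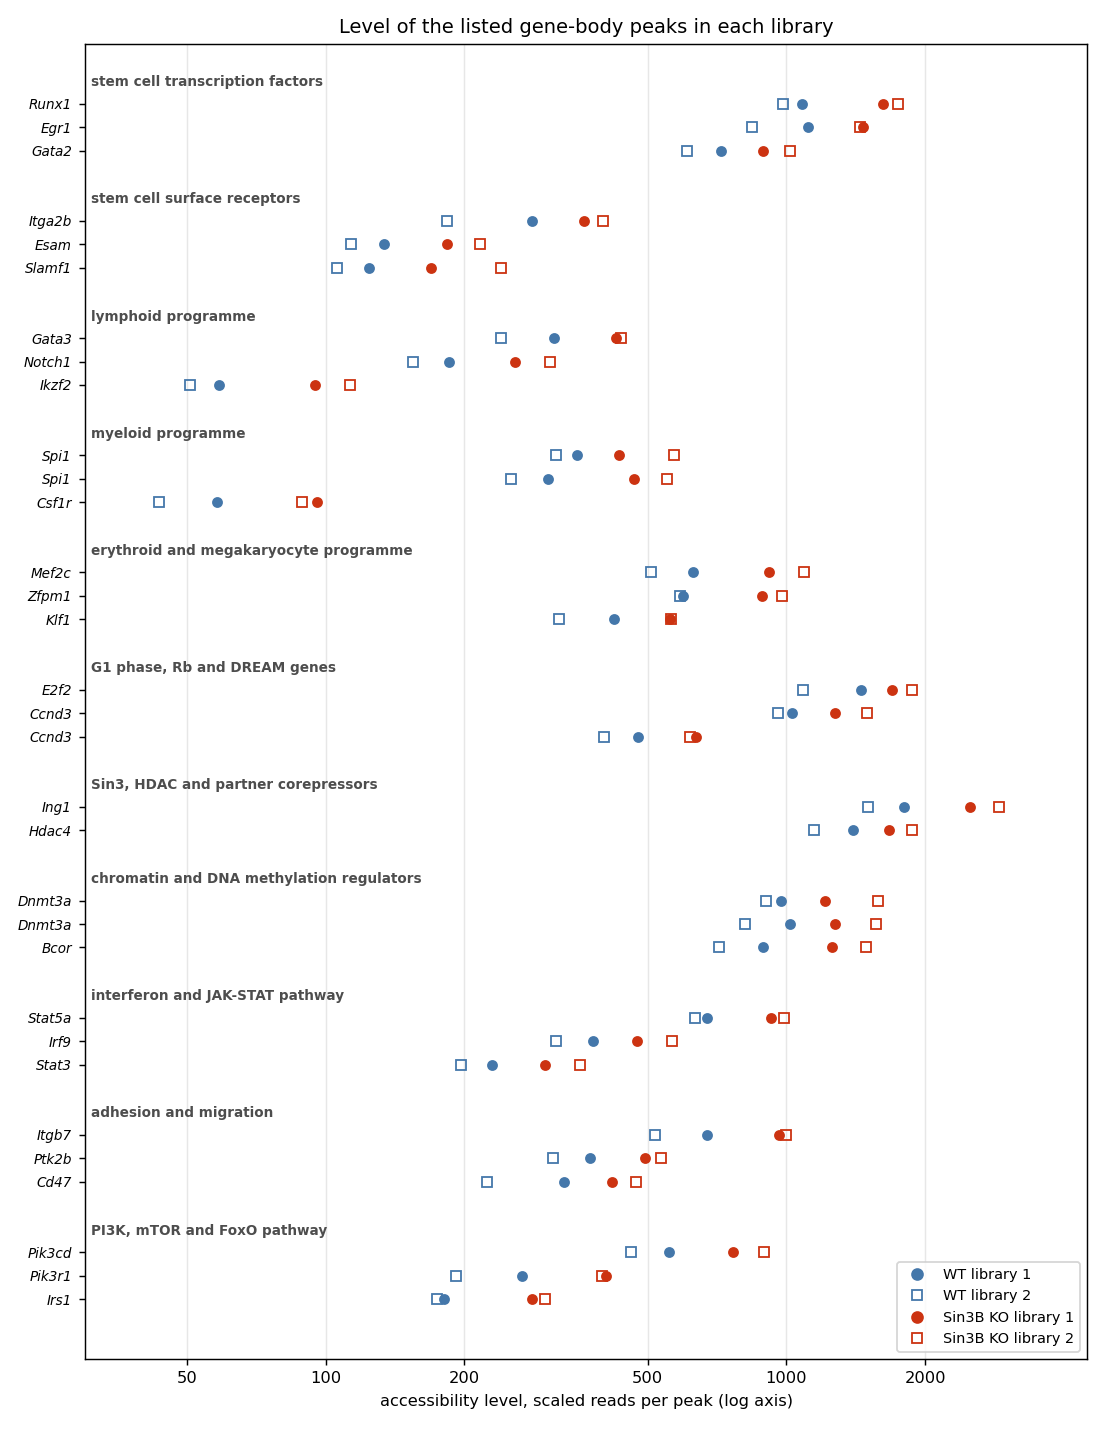
Level (scaled reads per peak, log axis) in each of the 4 libraries for up to 3 members of highest mean level in each of 11 gene lists. Blue symbols are Sin3B+/+ (WT) and red ones Sin3B-/- (KO), filled for replicate 1 and open for replicate 2. The red symbols lie to the right of the blue ones at all sites shown, and the choice of the members fixed this direction.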

How the data were processed

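ATAC-Seq was measured in 4 libraries, 2 per genotype, grouped by their labels. The authors processed the reads with FastQC, Trimmomatic, Bowtie2 and sambamba, called peaks with MACS2, and compared the genotypes in DiffBind with its DESeq2 method. Tool versions are not given in the sources used here. The values per library that the authors deposited are a signal: read numbers of each peak after scaling by a library factor. Other deposited columns hold the authors' log2 levels and log2 fold and their p-value and FDR, and none of these was used. The deposited table holds only peaks that passed the authors' test, and total depth is unknown. The labels name mm9, but 5330 of 5332 gene identifiers matched GENCODE M21, 96.6% of them with the same start and end, so GRCm38 sequence and basic GENCODE M21 transcripts were used.

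The log2 ratio was computed from summed levels, and positions, elements, GC content and 20 motifs from the peak centre (window of 300 bases). The motif and element steps were tested on simulated data. No test was run, since the rule used the contrast. The members, the 12 gene lists and the rules were chosen with earlier results of these data known. Named peaks were the 10 of highest level, those of the 5 genes with most members, the 3 highest of each list, the 3 nearest each bound and the 5 farthest from a gene start. List members beyond the 3 highest were named after their values were seen. Sequences were from the highest-level member of a list whose window was intronic, free of exons and not on chromosome 18. The window also had to match a motif longer than 6 letters, and 3 of the 8 so found are printed. The results of 1 list and of some peaks named by these rules are not reported here. Alternatives were other distance, ratio and window limits, transcript sets, a pseudocount of 1, centring, and leaving out each library. The steps ran in Python 3.11.15 with pandas 2.3.3, scipy 1.17.1 and numpy 2.4.6, and figures were drawn with matplotlib 3.10.9.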

Additional observations from a re-analysis of the deposited data

How the results depend on the processing

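With each library centred on its median over the table, the median log2 ratio of the members was -0.008 in place of 0.745, and both Sin3B-/- libraries stood above both Sin3B+/+ libraries in 221 members in place of 1572. Of the table's peaks 95.7% are gains, so centring on its median brings the median gain near 0 by construction and does not show how far the gains rest on the scaling. With single libraries left out the median log2 ratio ranged from 0.619 to 0.875 and the number of members from 1193 to 1829. An upper bound of 0.8 gave 1002 members, while other bounds and annotations stayed within 1.5 times the count, from 1420 members beyond 1000 bases to 2235 by GENCODE genes. Whole peaks free of exons made up 64.6% in place of 79.1% with an intronic centre. The share near a start was 17.2% within 500 bases, 32.8% within 2000 bases and 33.6% with all transcripts, in place of 24.2%. GC content over whole peaks was 52.2% in place of 53.3%. Motif shares moved beyond their 95% Wilson interval for 15 of 20 motifs in 200-base windows and 19 of 20 over whole peaks, which scan fewer or more bases. The labels give no pairing of libraries across genotypes, and no paired comparison was made. With 2 libraries per genotype and sites without a call not analysed here, the data describe called peaks on the authors' scale and neither the accessible genome nor differences between mice.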
